A study of Mus musculus with 4 samples.

Results

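DNA repair pathway genes were examined as a group of 49 named genes in MEFs, fibroblasts cultured from mouse embryos, with Affymetrix Mouse Genome 430 2.0 arrays. The genes were chosen by name, with earlier results of these data known. They cover end joining, homologous recombination, base excision, mismatch repair, nucleotide excision, the Fanconi pathway, translesion synthesis and direct reversal. Each gene was represented by 1 probe set, the one with the highest mean signal over the 4 arrays. Of the 49 genes, 47 had a probe set named for that gene alone, and 45 were measured, which means that the mean reached the median of all probe sets, 67.95. They are 45 of 11546 genes measured. Tdg was left out because its probe sets are listed with several genes, and Xrcc2 was not analysed here. Bard1, the partner of Brca1, read 6.0 to 46.4, and Ercc6, a factor of transcription-coupled repair, read 2.1 to 45.7. All these signals lay under the floor of 46.5 that was set before taking logs, so neither gene has a ratio.

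Cells remove DNA damage by dedicated routes. End joining and homologous recombination mend double-strand breaks, which ionizing radiation makes, and recombination works mainly in S and G2 phase when a sister copy is present. Base excision handles oxidized bases and single-strand breaks, nucleotide excision bulky lesions, and mismatch repair the errors of replication. The Fanconi pathway unhooks crosslinks between strands, and translesion polymerases copy past lesions that remain.

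The arrays held cells labelled Wip1+/+ or Wip1-/-, either unirradiated and given as 0 h, or harvested 4 h after 5 Gy of gamma radiation. Ppm1d encodes the phosphatase Wip1, which switches off p53 and checkpoint kinases after damage. The submitters made the arrays, by the series text, to look at targets of p53. Each of the 4 groups was 1 array, with no unirradiated cells at 4 h, so effects of radiation and of 4 h in culture cannot be told apart. Neither the number of embryos or cultures behind an array nor the allele behind the label Wip1-/- was given in the sources used here. With 1 array per group no test was possible, and no p-value is given. Genes were counted when 2 arrays differed at least 2-fold or at least 1.5-fold, and each count is set beside the share of all measured genes past the same fold. The only error available is how far probe sets of 1 gene spread in their log2 ratio. This SD was 0.37 for irradiation of Wip1+/+ cells, 0.62 for irradiation of cells labelled Wip1-/-, 0.65 for the genotype labels before irradiation and 0.41 after. It covers differences between probes, not between cultures, and all values are limited in precision by the small number of arrays.

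The brighter Ppm1d probe set read 364 and 375 in Wip1+/+ cells and 482 and 504 in cells labelled Wip1-/-, so its signal was not lower under the knockout label. The other read 316.8 and 463.1 against 219.3 and 561.1, lower before irradiation and higher after it. The position of these probes relative to the deleted part was not given in the sources used here. Groups are named by label for that reason. The unirradiated array labelled Wip1-/- stood apart: over 18 spike-in controls the SD of the log2 ratio was 0.44 to 0.47 in its 3 pairs and 0.07 to 0.10 in the remaining 3. All 9 measured fibroblast markers were above the floor on all 4 arrays, with summed signals of 212680 to 307067. The 15 macrophage markers, of which 14 were measured, had summed signals of 10332.6 and 10558.5 in Wip1+/+ cells against 2838.4 and 2495.1 in cells labelled Wip1-/-, with Itgam at the floor on every array and Fcer1g on 1. Summed signals of 17 cycling-cell markers were 30054.6 to 33441.7. Single markers differed more than the sums. On the unirradiated array labelled Wip1-/-, 10 of the 16 measured were lower than on the unirradiated Wip1+/+ array and 6 higher. Their log2 ratios ran from -1.30 for Mcm3 to 0.73 for Cdc6, with a median of -0.09. Their part in differences of repair genes was not tested. In bulk RNA, fewer cells of a type and less RNA per cell cannot be told apart.

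Most repair genes were dim, and the share of them that spanned 2-fold or more was near that of all genes. The measured members had mean signals of 96.4 to 4192, with a median of 262.5 against 621 for all measured genes. Of the 45, 34 had a mean under 500 and 11 one of 500 or more. Over all 4 arrays, 11 members (24.4%) spanned 2-fold or more, against 23.1% of all genes. Without the array that stood apart, 4 members (8.89%) did, against 9.28%. These shares lie near the background. The median log2 range of the members was 0.68 over 4 arrays and 0.43 over the 3, against 0.62 and 0.31 for all genes. The 4 members were Rad52, Lig4, Nthl1 and Ung. At the other end Xrcc1, the scaffold of single-strand break repair, read 459.2, 447.5, 446.0 and 448.9 in Wip1+/+ 0 h, Wip1+/+ 4 h, Wip1-/- 0 h and Wip1-/- 4 h, the order used for every set of 4 signals in what follows.

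**Figure D1:**
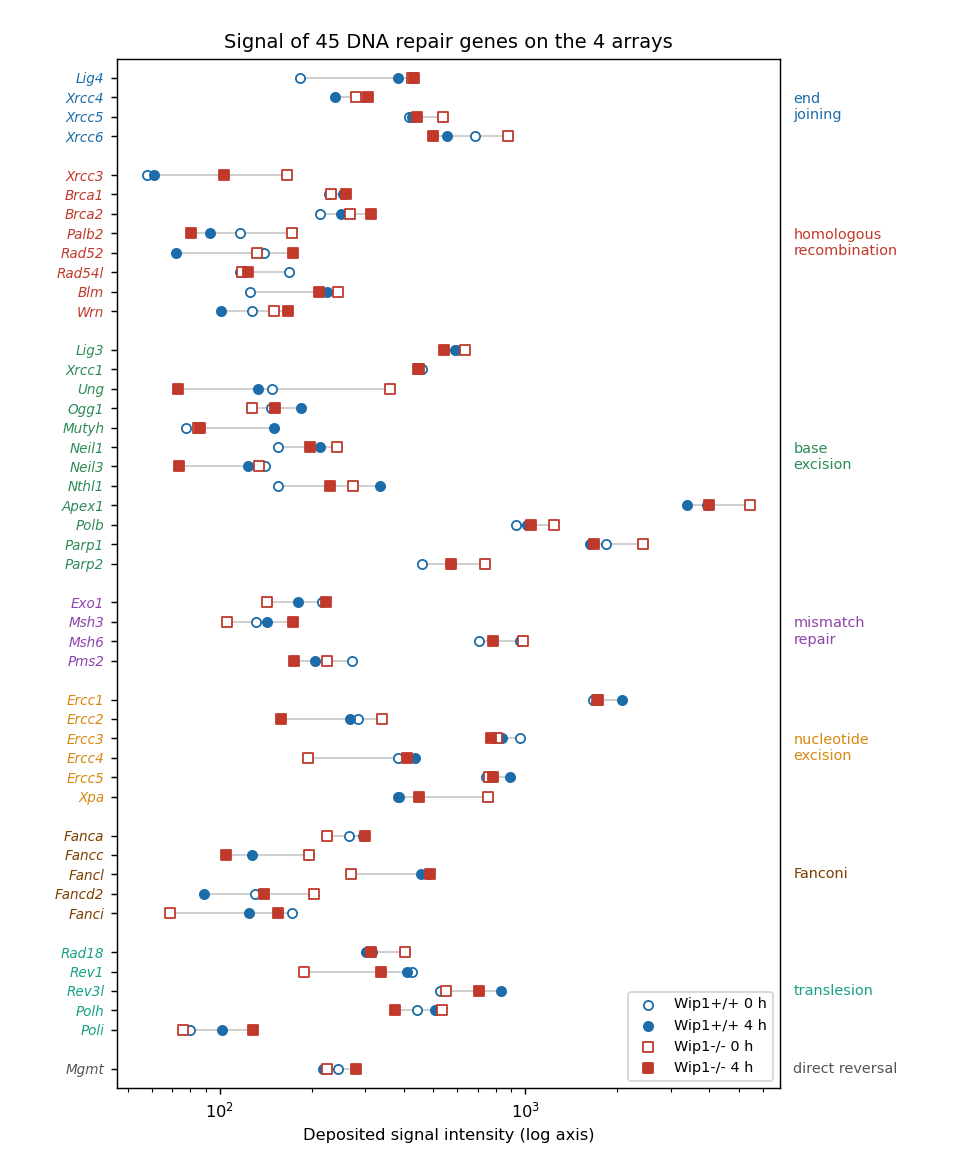
Deposited signal intensity on a log axis for the 45 measured repair genes, 1 row per gene, grouped by pathway; circles are Wip1+/+ arrays and squares arrays labelled Wip1-/-, open at 0 h and filled at 4 h. The 4 signals of Xrcc1 nearly coincide, while those of Ung run from 72.8 to 362.2, and the open square is the highest or lowest symbol for 28 of the 45 genes (62.2%, against 74.4% of all genes).

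Irradiation of Wip1+/+ cells asked which repair genes differ 4 h after damage when Wip1 is present. The ligase of end joining, a pair of base excision glycosylases and a recombination helicase were higher, while the annealing protein Rad52 and, by one of its probe sets, the Fanconi gene Fancc were lower. Past 2-fold, 2 of 45 members were higher and 0 lower, beside 1.58% of all genes higher and 1.5% lower, 3.07% in all. Past 1.5-fold, 5 were higher and 2 lower, 15.6% of the members, beside 10.7% of all genes, 5.6% higher and 5.12% lower. In the dim range, with a mean under 500, where 6 of the 7 lay, 21.9% of all genes and 17.6% of members passed 1.5-fold. The share of dim members is thus close to that of other dim genes. Of the 11 members with a mean of 500 or more, 1 passed 1.5-fold, Rev3l (9.09%, beside 1.72% of all genes in that range). The median absolute log2 ratio was 0.26 against 0.16 for all genes. It was 0.24 against 0.29 at means under 500, and 0.26 against 0.11 at means of 500 or more. The median log2 ratio of the 45 was -0.02, against 0.01 for all genes, with 21 above 0 and 24 below.

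In end joining, Lig4, the ligase that seals the break, read 183.3, 384.6, 427.7 and 433.8 and was 2.10-fold higher after irradiation. The unirradiated Wip1+/+ array stands low and the other 3 read close together. Lig4 has 1 probe set. Its log2 ratio of 1.07 is beyond the SD of 0.49 between probe sets of genes with means under 500. It stayed within 1.04 to 1.07 under the alternative normalizations. The floors, filters and probe set rules tried could not change it, given its signals and single probe set. Xrcc4, the scaffold that binds this ligase, read 295.4, 239.3, 278.9 and 304.9, a log2 ratio of -0.30 by each of its 2 probe sets. The Ku subunits, which bind broken ends, had ratios of 0.03 for Xrcc5 and -0.30 for Xrcc6.

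In base excision, Nthl1, a glycosylase for oxidized pyrimidines, read 154.8, 334.8, 272.2 and 229.5 and was 2.16-fold higher in irradiated Wip1+/+ cells. The unirradiated Wip1+/+ array was again the lowest. Mutyh, which removes adenine opposite 8-oxoguanine, read 77.5, 150.6, 84.7 and 86.4. It was 1.94-fold higher, with only the irradiated Wip1+/+ array high. Neil1, a glycosylase for oxidized bases, read 155.2, 213.0, 242.6 and 197.2, a log2 ratio of 0.46, and Ogg1, the glycosylase for 8-oxoguanine, 0.32. Parp2, a sensor of strand breaks, read 461.3, 573.1, 737.4 and 571.2. It had 0.31 and its relative Parp1 -0.18. The abasic endonuclease Apex1, the gap-filling polymerase Polb, the ligase Lig3, Xrcc1, Ung and Neil3 lay between -0.22 and 0.13. By its dimmer probe sets past the filter Lig3 had 0.53, -0.58 and -0.68. Of the 12 members measured, 6 were above 0 and 6 below, and the median of 0.05 turned to -0.02 under a filter on mean signal at the 67th percentile of all probe sets.

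Recombination genes went both ways. Rad52, the single-strand annealing protein, read 139.4, 72.0, 133.0 and 173.9, which is 1.94-fold lower after irradiation of Wip1+/+ cells. Its other probe set read 143.4, 105.1, 109.0 and 132.1, a log2 ratio of -0.45. The irradiated Wip1+/+ array is thus the lowest by both. Blm, the RecQ helicase that dissolves joint molecules, read 125.8, 224.0, 243.5 and 211.0. It was 1.78-fold higher, and as for Lig4 only the unirradiated Wip1+/+ array is low. Rad54l, a DNA-dependent motor protein of recombination, had a log2 ratio of -0.53, the helicase Wrn -0.35 and Palb2, the link between Brca1 and Brca2, -0.33. Brca1 and Brca2 themselves had 0.16 and 0.22, and Xrcc3, a recombination protein, 0.08. Of the 8 genes 4 were above 0 and 4 below, and the median of -0.12 turned to 0.19 under the filter at the 67th percentile.

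Of 5 Fanconi members, 4 had a log2 ratio below 0 in irradiated Wip1+/+ cells, with a median of -0.46. The SD between probe sets of 1 gene was 0.37, and 0.49 for means under 500. It does not measure the spread of a median over 5 genes. Of all genes 47.4% were below 0. The 8 further Fanconi genes measured had 5 above 0 and a median of 0.01. Fancc, a subunit of the core complex that ubiquitinates Fancd2 and Fanci, read 196.5, 127.7, 195.7 and 104.9, a ratio of -0.62. Its second probe set had 0.32, and the median over its probe sets was -0.15. Fancd2 had -0.55 and, by a second probe set, -0.53 or below. Fanci had -0.46 and -0.59 or below, each second value with the irradiated signal under the floor, so these partners were both lower by each probe set that passed the filter. Fancl, the ligase subunit, had -0.09 and Fanca 0.15. With the filter at the 67th percentile, which leaves out the dimmer members, the Fanconi median was 0.03. Cycling-cell markers moved with this group: 13 of 16 measured had a ratio below 0, with a median of -0.20, and their part in the result was not tested.

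The remaining pathways stayed under 1.5-fold except for Rev3l. This catalytic subunit of polymerase zeta read 526.2, 833.5, 549.5 and 704.7, with a log2 ratio of 0.66. Its second probe set had -0.83 or below, and the median over both was -0.083. Both irradiated arrays were above both unirradiated ones by the brighter probe set. The other translesion genes had ratios of 0.35 for Poli, 0.20 for Polh, a polymerase known as a p53 target, and -0.06 for the scaffold Rev1 and the PCNA ligase Rad18. Polh rests on a probe set of a type that may match several genes, and its other probe sets did not pass the filter. The median of the 5 translesion genes, 0.20, turned to -0.06 under the median over probe sets. All 6 nucleotide excision genes were between -0.20 and 0.31. Ercc1, the partner of the nuclease Xpf, read 1671.1, 2068.6, 1723.2 and 1734.8, and Ercc5, the nuclease Xpg, had a ratio of 0.26. In mismatch repair Msh6, which recognizes mismatches, read 706.5, 960.0, 981.3 and 785.5, a ratio of 0.44. Its relative Msh3 had 0.11, the nuclease Exo1 -0.26 and Pms2 -0.40. Only Msh6 of these 4 passes the filter at the 67th percentile, so the mismatch medians take its sign there. Mgmt, which repairs alkylated guanine directly, read 244.1, 217.9, 224.7 and 279.0, a ratio of -0.16.

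**Figure D2:**
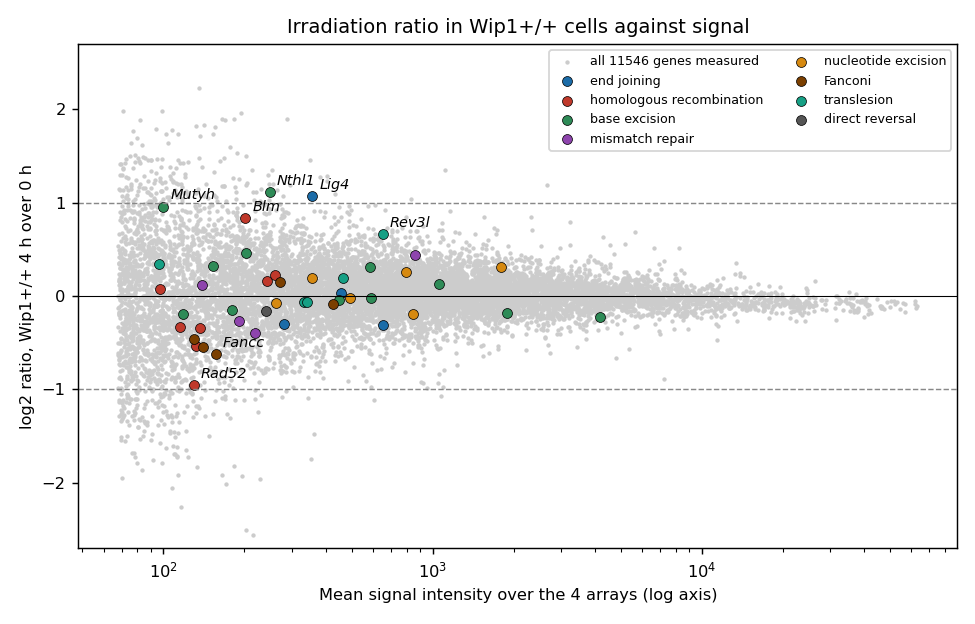
Log2 ratio of Wip1+/+ 4 h over 0 h against mean signal over the 4 arrays on a log axis, for all 11546 measured genes in grey and the 45 repair genes coloured by pathway; dashed lines mark 2-fold. The 7 named genes are those past 1.5-fold, 6 of them at mean signals under 500, where the grey cloud is also wide.

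The upstream sequences of the repair genes furthest apart in Wip1+/+ cells, with that of Ung, are shown because Lig4, Nthl1, Mutyh and Blm were higher together. RefSeq promoters of assembly GRCm38.p6 were found for 41 of the 49 members. Given are the last 150 bases before the annotated start, in the direction of the gene, with motif matches in capitals. The motifs searched on both strands were the GC box GGGCGG, the CCAAT box CCAAT, the E2F motif as TTTCCCGC, TTTGGCGC or TTTCGCGC, the CHR motif as TTTGAA or TTCGAA, the E box CACGTG and the p53 decamer. The window of Lig4 lies at chr8:9977681-9977830, that of its second start at chr8:9976312-9976461, Nthl1 at chr17:24632532-24632681, Mutyh at chr4:116807584-116807733, Blm at chr7:80534999-80535148, Rad52 at chr6:119902548-119902697 and Ung at chr5:114130285-114130434. Lig4 and Blm lie on the minus strand and the others on the plus strand.
Lig4 first start: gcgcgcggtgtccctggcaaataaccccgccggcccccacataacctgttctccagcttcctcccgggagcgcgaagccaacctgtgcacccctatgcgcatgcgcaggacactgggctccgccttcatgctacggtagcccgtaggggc
Lig4 second start: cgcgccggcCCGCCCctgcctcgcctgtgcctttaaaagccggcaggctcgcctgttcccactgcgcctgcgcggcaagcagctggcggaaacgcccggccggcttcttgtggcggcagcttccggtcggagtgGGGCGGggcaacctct
Nthl1: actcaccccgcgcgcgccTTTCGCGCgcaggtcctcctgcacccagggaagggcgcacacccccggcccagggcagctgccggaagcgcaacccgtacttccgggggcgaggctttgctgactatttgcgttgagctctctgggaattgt
Mutyh: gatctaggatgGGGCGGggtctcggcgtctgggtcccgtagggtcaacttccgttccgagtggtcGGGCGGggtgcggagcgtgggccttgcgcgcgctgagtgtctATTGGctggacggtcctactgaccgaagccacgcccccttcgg
Blm: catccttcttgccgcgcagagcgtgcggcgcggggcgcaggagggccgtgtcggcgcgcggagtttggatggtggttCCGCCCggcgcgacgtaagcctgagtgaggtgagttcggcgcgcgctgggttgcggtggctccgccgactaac
Rad52: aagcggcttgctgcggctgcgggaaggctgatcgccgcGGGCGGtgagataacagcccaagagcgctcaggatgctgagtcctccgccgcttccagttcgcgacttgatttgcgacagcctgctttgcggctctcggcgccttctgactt
Ung: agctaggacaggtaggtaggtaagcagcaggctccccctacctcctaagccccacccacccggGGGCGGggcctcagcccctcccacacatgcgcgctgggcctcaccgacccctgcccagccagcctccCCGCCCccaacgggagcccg

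In the bases shown, the capitals in Lig4, Blm, Rad52 and Ung are GC boxes, and the one match in Nthl1 is an E2F motif. Mutyh holds GC boxes and a CCAAT box. The first start of Lig4 holds no match in the bases shown. A second start of Mutyh, not printed, holds only a CCAAT box in its last 150 bases. Over 250 bases Nthl1 also had 1 GC box and 2 CCAAT boxes, and Blm had 2 CCAAT boxes. Over 250 upstream bases a GC box was found for 25 of 38 measured members (65.8%), against 64.5% of 9370 measured genes with a promoter. A CCAAT box was found for 47.4% against 40.5%. The E2F motif was found for 5 members, Bard1, Brca2, Msh3, Nthl1 and Xrcc6, which is 12.2% of the 41. Over measured genes alone it was found for 4 of 38 members (10.5%), against 3.53%. The log2 ratios of these 4 in irradiated Wip1+/+ cells ran from -0.30 for Xrcc6 to 1.11 for Nthl1. Of the 38, the p53 decamer was found for 1, Fanca (2.63%, against 7.26%), the CHR motif for 3 (7.89%, against 14.5%) and the E box for 6 (15.8%, against 9.99%). A match is a description of the letters only.

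Irradiation of cells labelled Wip1-/- asked whether these genes behave differently under this label. Here 9 of 12 base excision members were below 0, beside 52.3% of all genes. Fanci, Fancl, Exo1, Msh3, Rev1, Poli and Ercc4 were at least 1.5-fold higher. All these ratios are taken over the array that stood apart. Past 2-fold, 2 members were higher and 3 lower, beside 5.7% of all genes higher and 4.62% lower, 10.3% in all. Past 1.5-fold, 7 were higher and 8 lower, which is 33.3% of members beside 30.8% of all genes, 15.5% higher and 15.4% lower. Among dim genes 41.2% of members and 41% of all genes passed. The share is near the background. The median log2 ratio was -0.06, against -0.03 for all genes, and it was -0.21 with the median over probe sets.

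Ung, the uracil-DNA glycosylase, read 148.0, 133.5, 362.2 and 72.8 and was 4.98-fold lower after irradiation under this label. The unirradiated array labelled Wip1-/- is the highest of the 4 and the irradiated one the lowest, with the Wip1+/+ arrays between them. Ung has 1 probe set. Of 12 base excision genes 9 had a ratio below 0, with a median of -0.27. Neil3, a glycosylase for oxidized bases in single strands, read 141.0, 123.8, 134.2 and 73.5, a log2 ratio of -0.87 that rests on a low irradiated array. Parp1 had -0.54 by its brightest probe set but 0.09 and 0.22 by the others, Apex1 -0.45 and Parp2 -0.37. Of the higher ones, Ogg1 had 0.25 by one probe set and -1.40 by the other.

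Among recombination genes Palb2 read 116.6, 92.9, 172.5 and 80.6 and was 2.14-fold lower, with both irradiated arrays under both unirradiated ones. Xrcc3 had a log2 ratio of -0.69, Rad52 0.39 by one probe set and 0.28 by the other, and the other 5 lay between -0.21 and 0.22. In end joining Xrcc6, the Ku70 subunit, read 685.7, 555.1, 879.8 and 500.1, a ratio of -0.81, while Lig4 had 0.02. Lig4 was already high on the unirradiated array labelled Wip1-/-.

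In nucleotide excision Ercc2, the Xpd helicase of TFIIH, read 282.9, 267.9, 340.4 and 158.8 and was 2.14-fold lower. Only the irradiated array labelled Wip1-/- is low. Ercc4, the nuclease Xpf, read 382.1, 436.5, 195.1 and 412.0 and was 2.11-fold higher, resting on the unirradiated array, while its other probe sets that passed gave 0.10 and, with the unirradiated signal under the floor, 1.23 or above. Xpa, which verifies damage, read 387.6, 382.7, 755.7 and 450.5, a ratio of -0.75 that comes from a high unirradiated array.

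Fanconi genes split under this label. Fanci read 172.6, 125.1, 69.0 and 154.8, 2.24-fold higher, but its other probe set read 69.8, 38.7, 123.3 and 52.7, a log2 ratio of -1.23, and the median over both was -0.030. The 2 probe sets of Fanci thus have the unirradiated array labelled Wip1-/- as the lowest and as the highest. Fancl read 485.3, 456.1, 270.1 and 488.5, a ratio of 0.85 that rests on a low unirradiated array. Fancc had -0.90 and Fanca 0.41, and the Fanconi median of 0.41 turned to -0.03 with the median over probe sets. Fancd2 had -0.54 and -0.80 by its second probe set. In mismatch repair Msh3 read 131.9, 142.7, 106.1 and 173.6, a ratio of 0.71. Exo1 read 216.4, 180.3, 142.5 and 223.0, a ratio of 0.65, with the unirradiated array labelled Wip1-/- the lowest for both. Their second probe sets had 0.13 for Msh3 and 0.19 for Exo1, both under 1.5-fold. By contrast Msh6 had -0.32 and Pms2 -0.36. Among translesion genes Poli, a polymerase of the Y family, read 79.8, 101.6, 75.7 and 128.4, a ratio of 0.76. Rev1 had 0.84, Rev3l 0.36, Rad18 -0.37 and Polh -0.50. Mgmt had 0.31.

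**Figure D3:**
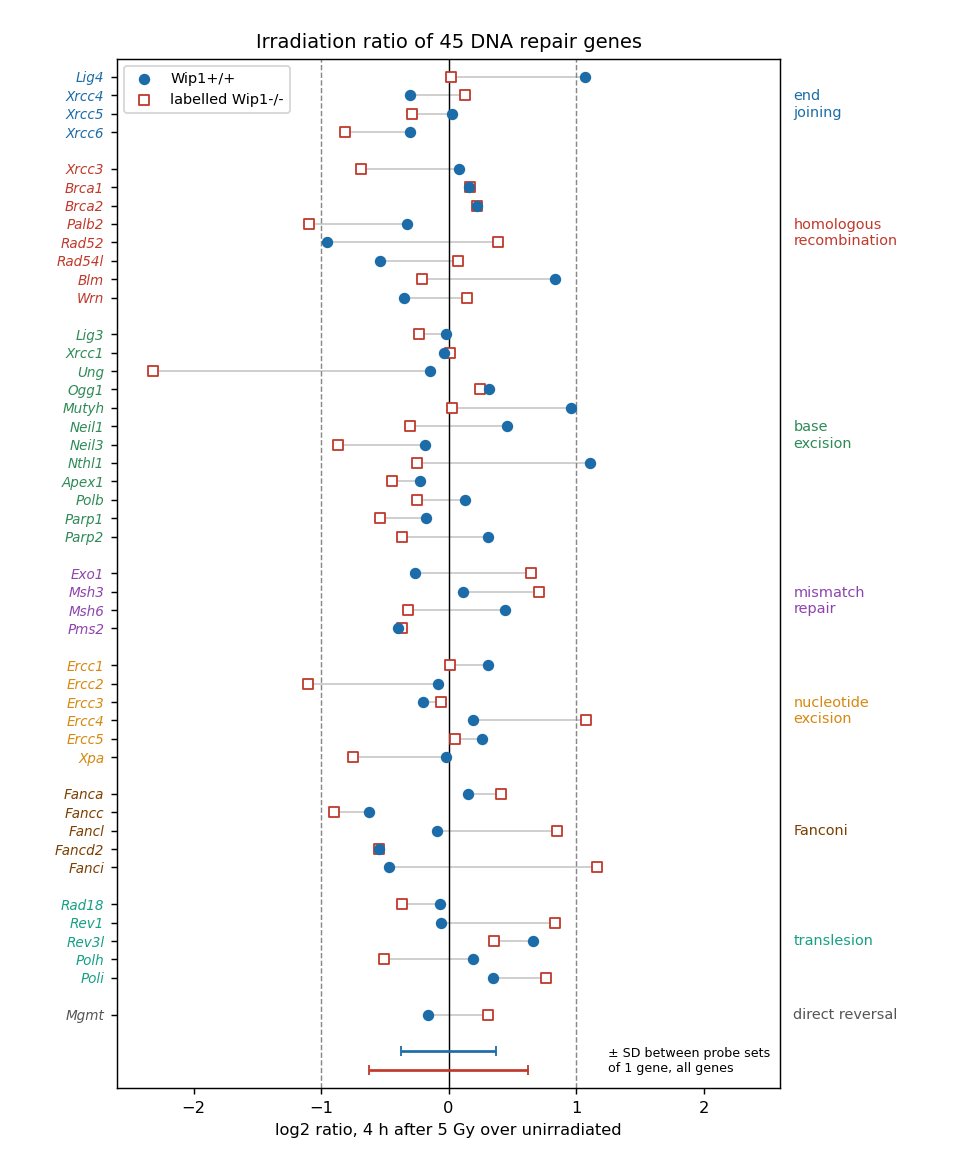
Log2 ratio of the irradiated over the unirradiated array for each of the 45 repair genes, in Wip1+/+ cells (filled circles) and cells labelled Wip1-/- (open squares); dashed lines mark 2-fold and the bars at the foot give plus and minus 1 SD between probe sets of 1 gene, 0.37 and 0.62. Lig4 and Nthl1 lie past 2-fold in Wip1+/+ cells and at 0.02 and -0.25 under the other label, Ung lies farthest left, and base excision squares sit left of the circles for 11 of 12 genes.

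Set side by side, the irradiation ratios of both labels share no array. Of the 45 genes, 12 were above 0 under both labels, 14 below 0 under both, 9 above 0 in Wip1+/+ cells and below 0 under the other label, and 10 the reverse. Both irradiated arrays lay above both unirradiated arrays for 10 genes (22.2%), beside 16.7% of all genes. These were Brca1, Ogg1, Mutyh, Msh3, Ercc1, Ercc4, Ercc5, Fanca, Rev3l and Poli. Both lay below for another 10, beside 16.3% of all genes: Xrcc6, Palb2, Lig3, Ung, Neil3, Parp1, Pms2, Ercc2, Fancc and Rad18. Fancd2 is not among these 10 because its unirradiated Wip1+/+ signal, 130.1, lay under the irradiated signal of the other label, 139.3. Both lists go by the brightest probe set. Another probe set past the filter did not repeat the order for Brca1, Ogg1, Msh3, Ercc1, Ercc4 and Rev3l. The same held for Lig3, Parp1, Fancc and Rad18 among the genes that lay below. The difference of the irradiation log2 ratios, Wip1-/- minus Wip1+/+, was below 0 for 11 of 12 base excision genes, with a median of -0.53, beside 52.8% of all genes below 0. It was -2.17 for Ung, -1.36 for Nthl1 and -0.93 for Mutyh. Xrcc1, at 0.05, was the exception by the brightest probe sets. By others past the filter Lig3 had -0.86, 0.23 and 1.33, Parp1 -0.07 and 0.34, and Polb 0.15 and -2.23. Apex1 and Ogg1 stayed below 0 by each of theirs. Of 11 members of any pathway with a mean of 500 or more, 10 were below 0, beside 53.4% of all genes in that range. For the 4 mismatch genes the median difference was 0.32 and for the 5 Fanconi genes 0.26. Rad52 had 1.34, and Fanci 1.63 by its brighter probe set but -0.64 by the other. These differences carry the probe set SD of 0.71, include the array that stood apart, and were not tested. Cycling-cell markers differed too, with 12 of 16 above 0 and a median of 0.18, and their part in the result was not tested.

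The comparison before irradiation asked which repair genes differ between the genotype labels in unirradiated cells. On the array labelled Wip1-/-, 9 of 12 base excision, 6 of 8 homologous recombination and 3 of 4 end joining members were above 0. So were 4 of 6 nucleotide excision and 3 of 5 translesion members, while 3 of 4 mismatch and 4 of 5 Fanconi members were below. Of all genes 53.5% were above 0 and 46.4% below. Further genes of these pathways had 3 of 7 above 0 for end joining, with a median of -0.02, and 4 of 8 for Fanconi, with a median of 0.04. For homologous recombination 8 of 22 further genes were above 0, with a median of -0.26. The counts were 11 of 15 for nucleotide excision, with a median of 0.11, and 3 of 9 for translesion, with a median of -0.14. Past 2-fold, 3 members were higher and 2 lower, beside 5.14% and 6.83% of all genes, 12% in all. Past 1.5-fold, 9 were higher and 5 lower, or 31.1% of members beside 32.9% of all genes, 16.6% higher and 16.3% lower. Among dim genes 38.2% of members and 41.8% of all genes passed. The median log2 ratio was 0.09, against 0.05 for all genes, and 0.25 with the median over probe sets. Of the 11 members with a mean of 500 or more, 10 were above 0, where 53.6% of all genes in that range were. This comparison uses the array that stood apart, and shares the unirradiated Wip1+/+ array with the first comparison. Both unirradiated arrays also enter the difference of the irradiation log2 ratios, with the opposite sign. Counts before irradiation and counts of that difference are thus not separate results.

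Xrcc3 read 57.9, 61.2, 166.2 and 103.2 and was 2.87-fold higher before irradiation and 1.69-fold after. Both arrays labelled Wip1-/- lay above both Wip1+/+ arrays, whose signals are close to the floor. Its dimmer probe set did not pass the filter. Ung was 2.45-fold higher and Lig4 2.33-fold, and Blm had a log2 ratio of 0.95. The low ones were Fanci, lower by a log2 ratio of -1.32 but 0.82 by its other probe set, and Rev1, which read 427.3, 409.2, 188.8 and 337.6 and was 2.26-fold lower. Of the 12 base excision genes 9 were above 0, with a median of 0.41. Apex1 read 3948.0, 3386.4, 5439.2 and 3992.4, with ratios of 0.46, 0.37 and 0.19 by 3 probe sets. Polb had 0.42 (-0.32 by its second probe set), Parp1 0.40 (0.27 and -0.49 by its others), Parp2 0.68, Nthl1 0.81 and Neil1 0.64. After irradiation 4 of the 12 were above 0, with a median of -0.12. That median was 0.00 under the filter at the 67th percentile.

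After irradiation the labels differed less. Past 2-fold, 1 member was higher and 0 lower, beside 2.35% and 2.94% of all genes, 5.29% in all. Past 1.5-fold 4 were higher and 4 lower, or 17.8% of members beside 14.6% of all genes, 6.6% higher and 7.95% lower. The 8 all had mean signals under 500, where 26.7% of all genes passed. The median log2 ratio was 0.00, as for all genes. Rad52 was 2.42-fold higher, and its second probe set had a log2 ratio of 0.33. Neither array of this comparison is the one that stood apart. The irradiated array labelled Wip1-/- was also set against the average log2 signal of the Wip1+/+ pair, which mixes irradiated and unirradiated cells. By that measure Rad52 had 0.80, and 0 members were past 2-fold, beside 4.24% of all genes. Xrcc3 had 0.75 between the irradiated arrays and 0.79 against that mean. Wrn, which read 128.1, 100.7, 151.0 and 167.0, had 0.73, but -0.60 by another probe set and 0.06 by the median over its probe sets. Ung had -0.87, and -0.95 against the mean of both. Ercc2 and Neil3, with -0.75 each, had -0.79 and -0.85. Mutyh had -0.80, but -0.32 against the mean of both, since only the irradiated Wip1+/+ array was high.

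Fancd2, which the core complex ubiquitinates, was higher under the knockout label by both of its probe sets that passed the filter. The brighter read 130.1, 89.1, 203.1 and 139.3, with log2 ratios of 0.64 before and 0.64 after irradiation. The other read 67.3, 34.1, 163.0 and 93.9, with 1.28 and 1.01, the last against a signal at the floor and so a lower bound. Both arrays labelled Wip1-/- lay above both Wip1+/+ arrays by either probe set. Against the mean of both Wip1+/+ arrays the brighter had 0.37. In all, both arrays labelled Wip1-/- lay above both others for 9 members (20%), beside 20.9% of all genes: Lig4, Xrcc5, Xrcc3, Brca2, Wrn, Apex1, Polb, Xpa and Fancd2. They lay below for 2 members (4.44%), Ercc3 and Rev1, beside 18.7%. In either direction the labels did not overlap for 11 members (24.4%), beside 39.6% of all genes. Both lists go by the brightest probe set. A second probe set of Wrn read 128.7, 120.4, 7.8 and 79.3, lower on both arrays labelled Wip1-/-. The second probe set of Polb did not separate the labels, while Apex1 and Fancd2 lay above by each of theirs past the filter. Brca2, a mediator of recombination, read 213.5, 249.3, 267.5 and 311.9. Ercc3, the Xpb helicase, read 959.6, 837.2, 806.7 and 774.9, with ratios of -0.25 and -0.11. Macrophage markers were lower on both arrays labelled Wip1-/-, 14 of 14 before and 14 of 14 after irradiation with medians of -1.76 and -1.72, and their part in these differences was not tested.

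**Figure D4:**
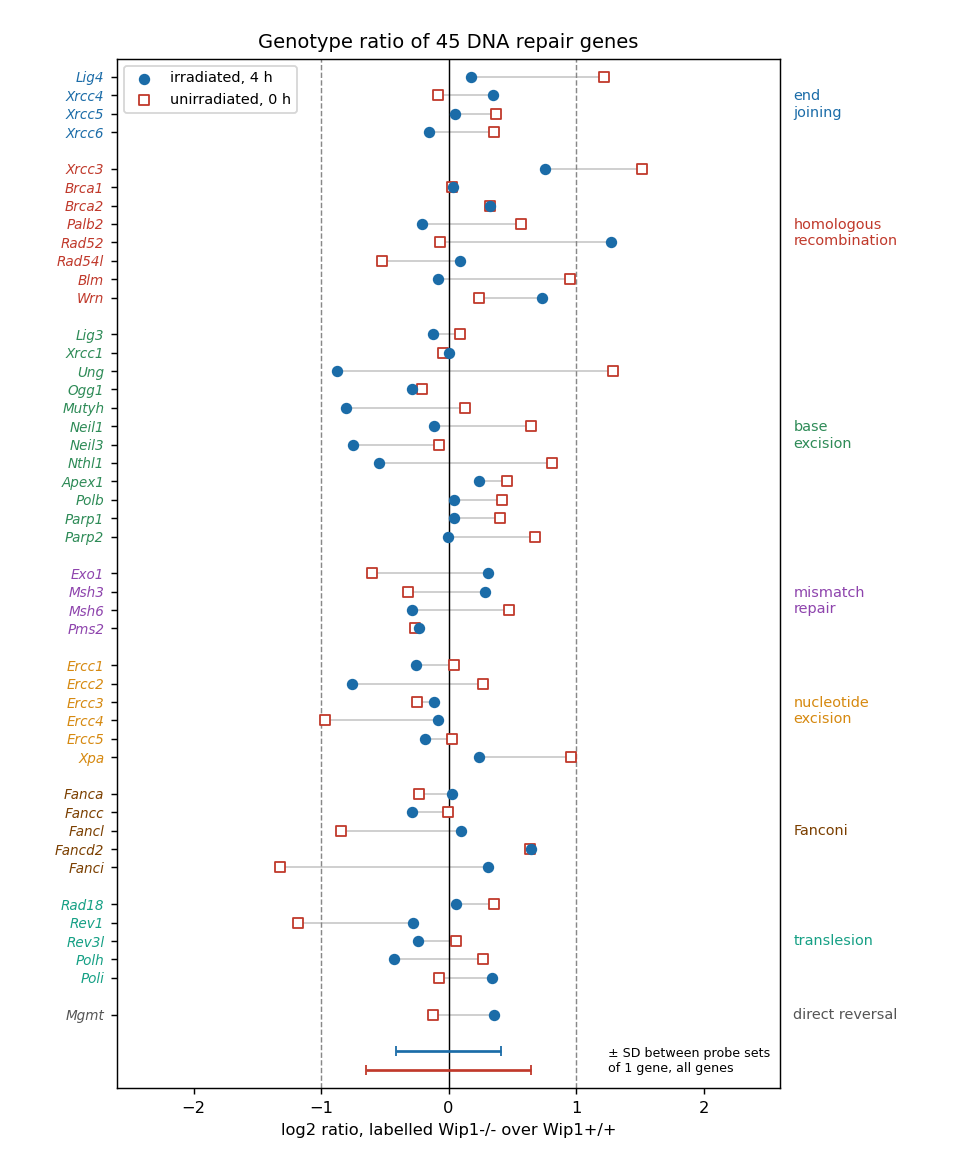
Log2 ratio of the array labelled Wip1-/- over the Wip1+/+ array for each of the 45 repair genes, irradiated (filled circles) and unirradiated (open squares); dashed lines mark 2-fold and the bars at the foot give plus and minus 1 SD between probe sets, 0.41 and 0.65. Squares spread more widely than circles, Xrcc3 and Fancd2 lie right of 0 by both, and Ung lies at 1.29 unirradiated and -0.87 irradiated.

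Probe sets of 1 repair gene often disagreed. For 18 members with 2 or more probe sets past the filter, 28 other probe sets could be set against the brightest. The sign was the same for 20 of 28 in irradiated Wip1+/+ cells, for 16 in cells labelled Wip1-/-, for 17 between labels before irradiation and for 15 after. The median gap was 0.27, 0.61, 0.67 and 0.36 in that order, so the pairs with the array that stood apart had the wider gaps. Polb is an example: its brighter probe sets had 0.13 and 0.38 in Wip1+/+ cells, and a dim one, reading 26.6, 173.5, 116.7 and 92.8, had 1.90 against a signal at the floor. Brca1 read 227.7, 253.9, 231.5 and 259.7 by the brightest of 4, while the second read 75.7, 7.2, 106.7 and 135.5, a ratio of -0.70 or below in Wip1+/+ cells.

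**Figure D5:**
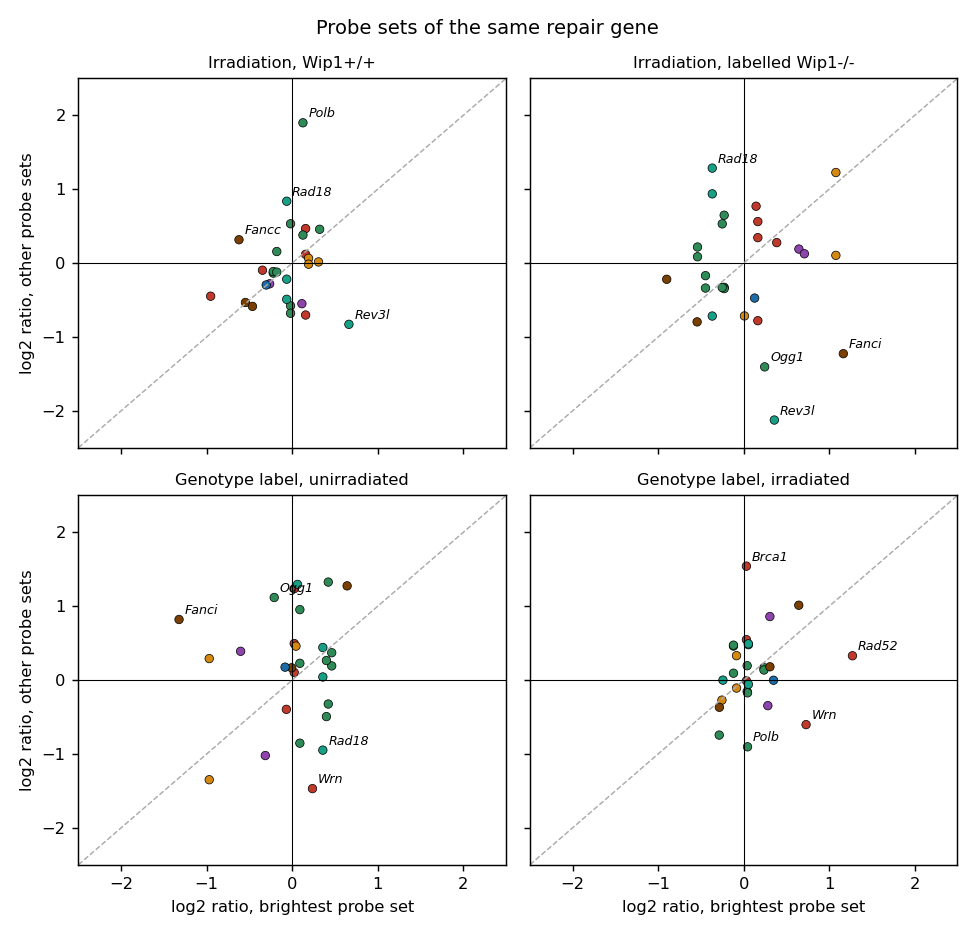
Log2 ratio by the other probe sets of a repair gene against that by its brightest probe set, in 4 panels for the 4 comparisons, with 28 points from 18 genes in each, coloured by pathway as in the plot of ratio against signal; the dashed line marks equality. Points in the upper left and lower right of a panel disagree in direction, among them Rev3l and Fanci, and the panels with the unirradiated array labelled Wip1-/- are the more scattered.

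Further repair genes, 92 from a list of the same pathways, were read alongside, and 77 were measured. In irradiated Wip1+/+ cells 0 were at least 2-fold higher and 1 was lower, 1.30% beside 3.07% of all genes. Past 1.5-fold 1 was higher and 7 lower, 10.4% beside 10.7%, and the median was 0.00. The lower one was Brip1, a helicase partner of Brca1, which read 117.0, 38.5, 150.3 and 85.7, with a log2 ratio of -1.33 or below. Of 22 homologous recombination genes on this list, 14 were below 0, beside 47.4% of all genes. Under the label Wip1-/-, 5 were at least 2-fold higher after irradiation and 0 lower, 6.49% beside 10.3% of all genes in either direction and 5.7% higher. These were Dna2 and Recql4, a nuclease and a helicase of resection and replication, the crossover nuclease subunit Eme1, the translesion polymerase Polk and the ubiquitin ligase Shprh. Recql4 read 21.6 on the unirradiated array, under the floor. Polk, the brightest of them at 1053.1, 1388.2, 578.6 and 1256.5, had ratios of 0.40 in Wip1+/+ cells and 1.12 under the other label, and its second probe set had 0.67 and 0.99. Shprh had 1.38, with -0.89 and 0.90 by its other probe sets. The base excision genes of this list, 12 measured, had 9 above 0 between labels before irradiation with a median of 0.33, and 7 below 0 after irradiation of cells labelled Wip1-/- with a median of -0.39. Between labels after irradiation 7 of these 12 were above 0, with a median of 0.08, against 4 of 12 members. Their difference of irradiation ratios was below 0 for 7 of 12, with a median of -0.10, against 11 of 12 members and -0.53. Before irradiation Paxx, an end joining factor, and Fancg, a Fanconi core subunit, were 2.16- and 2.59-fold higher on the array labelled Wip1-/-, while Slx4, a nuclease scaffold, Recql4 and Shprh were at least 2-fold lower, 6.49% in all beside 12% of all genes. After irradiation Top3a, Eme1 and Fancg were at least 2-fold higher and the helicase Recql5 lower, 5.19% beside 5.29%. The second probe set of Fancg went the other way, with -1.50 before and -0.65 after irradiation.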

How the data were processed

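Arrays were 4 Affymetrix Mouse Genome 430 2.0 chips, 1 per group. The deposited values are linear signal intensities, made with GCOS per the submitters' processing notes. Its version, algorithm and target were not given in the sources used here. The 2% trimmed mean of the deposited intensity was 499.8 on every array, so the arrays had been scaled to a common level.

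Of 45101 probe sets, 64 controls were left out. Genes were named from the platform annotation, with 34945 probe sets listed for 1 symbol, 932 for several and 9160 for none. Signals under 46.5, the 40th percentile, were raised to it before log2. A gene took its probe set with the highest mean, and was measured if that mean reached 67.95. Ratios are between single arrays. The 49 members and the gene lists were chosen with earlier results of these data known. Every member is named. Members at least 1.5-fold apart in a comparison, and the brightest and dimmest of each pathway, have all 4 signals, and other repair genes are named where at least 2-fold apart. Other members given with 4 signals and the probe sets shown as examples were chosen after their values were seen. Alternatives were quantile normalization, cyclic loess and scaling by brighter probe sets, no floor or one at the 25th percentile, no filter or one at the 67th percentile, the median over probe sets, and leaving out probe sets that may match several genes. Leaving out the unirradiated array labelled Wip1-/- was added after seeing the data. Scripts used Python 3.11.15, pandas 2.3.3, numpy 2.4.6 and limma 3.58.1.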

Additional observations from a re-analysis of the deposited data

Results flagged for a closer look

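Ung, the uracil-DNA glycosylase, went opposite ways between the genotype labels. Before irradiation the array labelled Wip1-/- was higher by a log2 ratio of 1.29, and after irradiation it was lower, with a ratio of -0.87. Both are past 1.5-fold, they come from 1 array per group and 1 probe set, and the difference was not tested. The unirradiated array labelled Wip1-/-, which stood apart on the spike-in controls, carries the first value.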

How the results depend on the processing

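No paired analysis was possible because each group holds 1 array. Signs of the pathway medians held under quantile normalization, cyclic loess and scaling by brighter probe sets, the last of which moved the median of all genes to -0.12 for irradiation under the label Wip1-/- and 0.12 between labels before irradiation. With the filter at the 67th percentile, which leaves 27 members, 2 members were at least 2-fold apart after irradiation of cells labelled Wip1-/- (5 without it), 2 between labels before irradiation (5) and 0 after (1), and the median before irradiation was 0.27 (0.09). With the median over probe sets, 0 were 2-fold apart between labels after irradiation, and the medians were 0.25 before irradiation and -0.21 for irradiation under the label Wip1-/- (-0.06). That setting turned Rev3l in irradiated Wip1+/+ cells from 0.66 to -0.083 and Fanci under the other label from 1.17 to -0.030, since their second probe sets opposed the first. With the irradiated array labelled Wip1-/- set against the mean of both Wip1+/+ arrays, 0 members were 2-fold apart. Against the irradiated Wip1+/+ array alone Rad52 was 2.42-fold higher. With 1 array per group, signals near the floor and pairs with the array that stood apart are the least precise.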
